A study of Mus musculus with 4 samples.

Results

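Thalamic relay neurons were represented by 885 of the 52132 nuclei kept from 4 mouse brain libraries. These nuclei were chosen by the counts of 11 genes, using unique molecular identifiers (UMIs, each marking 1 captured RNA molecule). A nucleus was selected when it held at least 1 UMI of *Slc17a6*, at least 3 UMIs of *Tcf7l2*, at least 2 UMIs summed over *Prkcd*, *Lef1*, *Synpo2* and *Plekhg1*, no UMI of *Gad1* or *Gad2*, and at most 2 UMIs summed over the myelin genes *Mog*, *Mag* and *Mobp*. The series compared single-nucleus RNA of brains from 2-month-old female C57/BL6 mice that were wild type (WT) or heterozygous for *Csf1r* (*Csf1r+/-*, called HET here). *Csf1r* encodes the receptor for CSF-1 and is made chiefly by microglia, so that the heterozygous state, which every cell of a HET mouse shares, served as a model of a leukoencephalopathy that begins in microglia. No animal received a treatment, and 2 libraries of each genotype were analysed. A further library of either genotype was not analysed here.

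The thalamus passes sensory and motor signals to the cortex through glutamatergic relay neurons. These cells load glutamate into vesicles with VGLUT2, the product of *Slc17a6*, and they switch between tonic and burst firing by means of T-type calcium channels. TCF7L2, a transcription factor that pairs with beta-catenin in the Wnt pathway, maintains the postmitotic identity of thalamic neurons, and it is also made in the habenula, the pretectum and parts of the midbrain.

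The libraries contributed 342 (WT 1), 173 (WT 2), 154 (HET 1) and 216 (HET 2) relay nuclei. Their summed depth was 3748716 UMIs in WT 1, 1640989 in WT 2, 2155587 in HET 1 and 2542237 in HET 2. The median relay nucleus held 9548, 8091, 12929.5 and 9794 UMIs in the same order, against 5403, 4598.5, 7366 and 6586.5 in all other kept nuclei. Relay nuclei were therefore the deeper ones in each of the 4 libraries. The median number of genes per relay nucleus was 3213 in WT 1, 2992 in WT 2, 3935.5 in HET 1 and 3350 in HET 2. When the 879 relay nuclei with at least 3000 UMIs were thinned to that depth, the medians became 1503, 1533, 1520 and 1521. The difference in genes thus followed depth. Pairs of libraries had between 33 and 68 kept barcodes in common.

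The library labelled WT 2 stood apart from the others in several measures that recur below. The median share of mitochondrial UMIs in its relay nuclei was 0.412%, against 0.109% in WT 1, 0.203% in HET 1 and 0.0854% in HET 2. It also held the most RNA of the astrocyte, oligodendrocyte and ribosomal protein lists in relay and in all other nuclei. High Scrublet scores mark barcodes that look like 2 nuclei of different kinds. They were given to 98 of the 885 relay nuclei (11.1%), beside 11.2% of all kept nuclei. An expected doublet rate set the number of high scores in each library beforehand, so these shares are not measured doublet rates.

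The genes of the rule, which chose these nuclei, are given as a description with no test. *Tcf7l2* (chr19:55741797-55933659 in the GRCm38 build) stood at 726.1, 693.5, 675.9 and 691.1 CPM (a gene's UMIs per 1000000 UMIs summed over the nuclei) in WT 1, WT 2, HET 1 and HET 2, and at 31.29 CPM in all other nuclei. *Lef1*, a transcription factor of the same family (chr3:131110297-131224357), stood at 471.4, 440.6, 516.3 and 536.9 CPM, against 18.12 CPM elsewhere. *Synpo2*, which encodes an actin-binding protein (chr3:123076519-123236168), was at 699.2, 684.3, 778.0 and 726.9 CPM. Each of these genes thus varied little between the 4 libraries. *Prkcd*, which encodes protein kinase C delta (chr14:30595353-30626414), was the least even of the set, with a UMI in 48.2%, 37.0%, 46.8% and 41.7% of the relay nuclei. All 4 of *Prkcd*, *Lef1*, *Synpo2* and *Plekhg1* were detected in 365 relay nuclei, 3 of them in 275, 2 in 150 and 1 in 95.

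The edge of the selection was gradual. The 114 nuclei with exactly 3 *Tcf7l2* UMIs, just inside the threshold, had 3118 CPM of *Ntng1*, a gene the rule did not use. The 109 nuclei with exactly 2 *Tcf7l2* UMIs, just outside, had 2661 CPM. For the sum of 4 genes, nuclei with exactly 2 UMIs (68) had 2104 CPM of *Ntng1*, whereas those with 1 UMI (100) had 1506 CPM and those with none (308) had 1123 CPM. A further 276 nuclei met every other condition but held no *Slc17a6* UMI, and their *Ntng1* level was 3602 CPM. The rule therefore left out some nuclei that resembled those it took.

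Genes known from the thalamus that the rule did not use were examined to check the label. All 14 of them were higher in relay nuclei than in all other nuclei in every library. These are a description, since the nuclei were selected on related genes. *Ntng1*, which encodes netrin-G1 on thalamocortical axons, was at 3774, 3841, 3533 and 4189 CPM in WT 1, WT 2, HET 1 and HET 2 and at 333.3 CPM in all other nuclei, a ratio of 11 to 12.2 by library. *Shox2*, a homeobox factor of thalamic neurons, was at 25.61, 48.14, 38.97 and 26.35 CPM against 1.469 CPM. *Slitrk6*, a synaptic adhesion gene, was at 41.35, 31.08, 36.65 and 32.65 CPM against 1.902 CPM. None of these 3 genes overlapped the level of the other nuclei in any library. The smallest ratios belonged to *Rora*, which encodes a nuclear receptor widely made in brain (1.74 to 2.00), and *Lhx2* (1.44 to 1.87). *Gbx2*, a factor of the developing thalamus, was found in only 1.58% of relay nuclei. Of the 13 listed genes detected in 10% or more of relay nuclei, 11 were at least 2 times higher in every library, beside 304 of all 8448 genes detected to that extent (3.6%).

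Markers of neighbouring *Tcf7l2* regions were scarce. Of the habenula genes, *Pou4f1* (0.4957 CPM), *Tac2* (0.4957 CPM), *Gpr151* (0.3965 CPM), *Gng8* (0.2974 CPM) and *Chrna3* (0.5948 CPM) were near 0 and *Chrnb4* was at 0, while *Nwd2*, which other neurons also make, was at 72.56 CPM against 202.4 CPM in other nuclei. The other nuclei were near 0 as well for *Pou4f1* (0.4687 CPM), *Gpr151* (0.08175), *Gng8* (0.1853) and *Chrna3* (0.5968), so these 4 genes were scarce in both and did not set relay nuclei apart. The 6 pretectal and midbrain genes, with *Ebf2* the most abundant, summed to 9.87, 7.313, 13.45 and 5.114 CPM in WT 1, WT 2, HET 1 and HET 2. In all other nuclei the sums were 16.29, 18.82, 13.59 and 12.65 CPM, so that the 2 sets were nearly level in HET 1. The 7 hypothalamic genes summed to 12.54, 1.219, 2.783 and 0.3934 CPM, with 3 of the 7 at 0. In all other nuclei the sums were 7.815, 10.8, 10.47 and 5.935 CPM, so that relay nuclei were the higher in WT 1. *Avp* gave 37 UMIs in WT 1, although only 0.226% of all relay nuclei held it. By the thalamic genes the selection matched its label as a whole, with exceptions in 3 subclusters described below. The sums for the neighbouring regions did not set relay nuclei apart in every library.

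**Figure D1:**
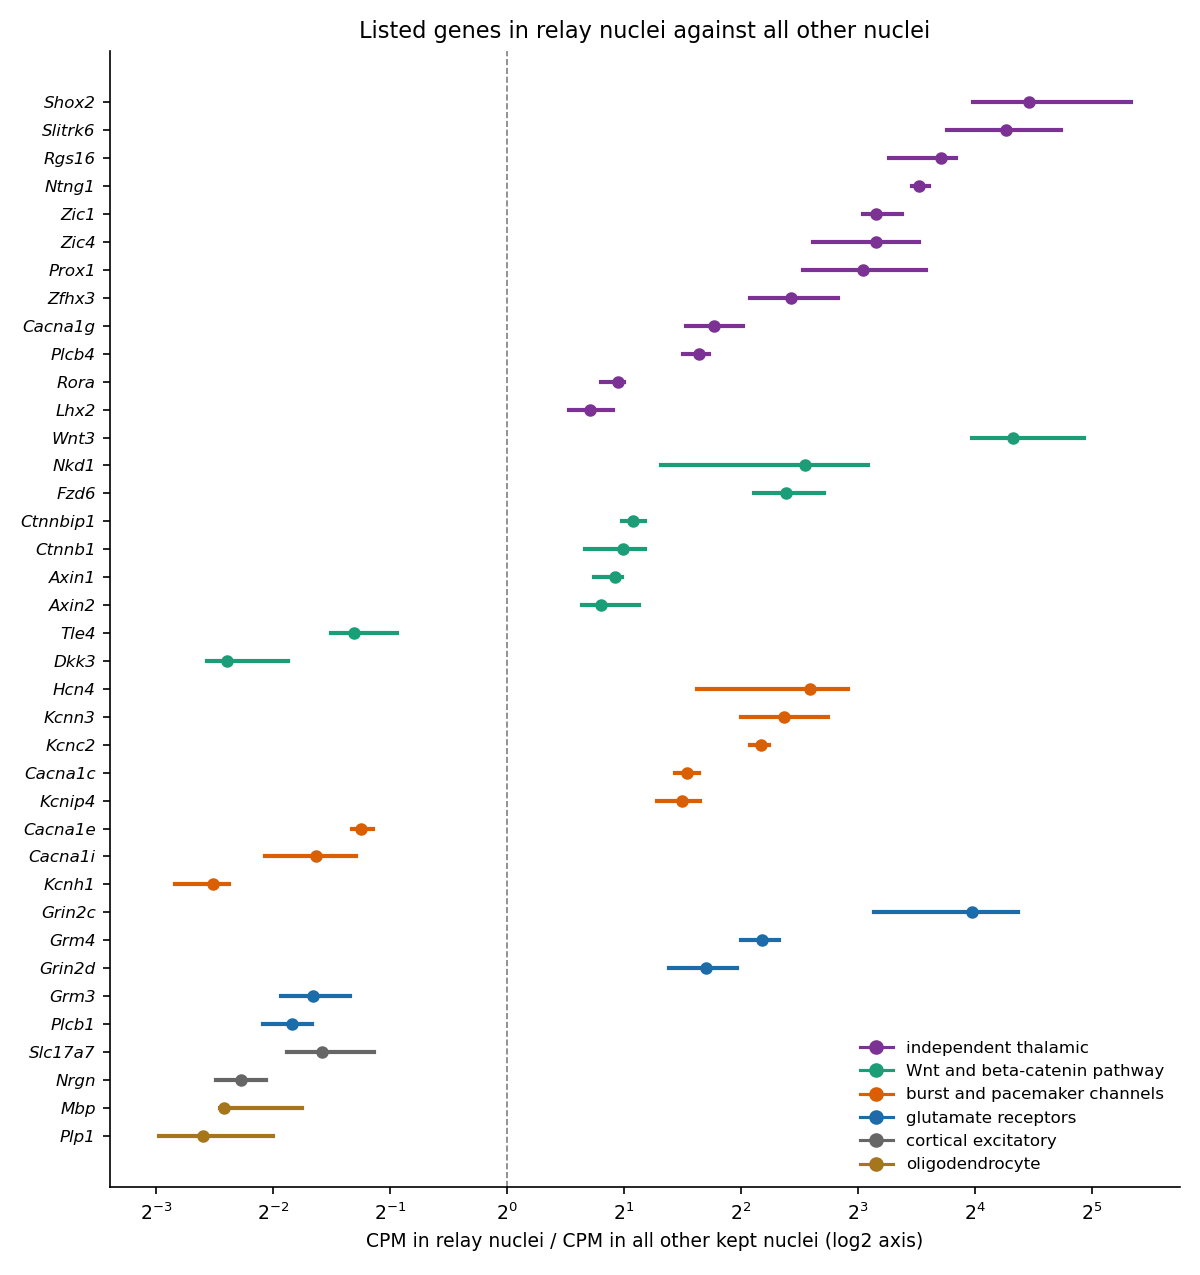
Ratio of the level (CPM) in relay nuclei to that in all other kept nuclei for listed genes, on a log2 axis; points are the pooled ratio and bars run from the lowest to the highest of the 4 libraries. The 12 thalamic genes shown sit to the right of the dashed line at equal levels, from *Shox2* at the top to *Lhx2*, and cortical and oligodendrocyte genes sit to its left.

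The 20 genes outside the rule with the highest ratio of relay nuclei to other nuclei are given next. They are ranked by the lowest of the 4 library ratios among genes detected in 50% or more of relay nuclei. *Vangl1*, which encodes a planar polarity protein of the Wnt pathway, led with 74.43, 85.31, 70.51 and 76.31 CPM in WT 1, WT 2, HET 1 and HET 2 against 3.45 CPM elsewhere. *Prkch*, which encodes protein kinase C eta, followed with 196.9, 148.1, 154.5 and 164.4 CPM against 7.835 CPM. *Vav3*, which encodes an exchange factor for small GTPases, was found in 95.6% of relay nuclei and 22.3% of others, at 1219 and 72.81 CPM. In these 3 genes the lowest library was at least 14.4 times the level of other nuclei.

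The others included genes of several kinds. Regulators of the actin cytoskeleton or cell junctions were *Amotl1* (lowest ratio 11), *Pdlim5* (7.4), *Eps8* (6.50) and *Sh3d19* (5.49). *Inpp4b*, a phosphoinositide phosphatase, was found in 99.5% of relay nuclei, at 2226 CPM against 354.5 CPM elsewhere. Transcription factors were *Prox1* (lowest ratio 5.77) and *Zfp423* (5.31), and *Rnf220*, which encodes a ubiquitin ligase that stabilizes beta-catenin, had a lowest ratio of 5.67. *Syt9* and *Mctp2*, which encode calcium-binding membrane proteins, had lowest ratios of 5.31 and 6.43. Against the 1327 other *Slc17a6* nuclei that lacked *Tcf7l2*, the ratios of these 20 genes ran from 3.29 for *Ano5*, a scramblase family gene, to 32.9 for *Cnksr3*, a scaffold gene of kinase signalling.

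Few Wnt pathway genes stood far from their level in other nuclei. Among 58 listed genes, 35 were detected in 10% or more of relay nuclei, and 3 of these were at least 2 times higher and 1 at most 0.5 times as high in every library. Over all 8448 genes detected to that extent, 3.6% were at least 2 times higher and 2.08% at most 0.5 times as high. *Wnt3*, which encodes a ligand, was at 21.34, 25.59, 20.88 and 23.6 CPM in WT 1, WT 2, HET 1 and HET 2 and at 1.117 CPM in other nuclei. *Fzd6*, a receptor gene, was at 18.41, 9.141, 8.814 and 15.34 CPM against 2.69 CPM, and *Nkd1*, a feedback inhibitor, was at 20.54, 10.97, 20.41 and 12.59 CPM against 2.897 CPM. No library of relay nuclei came down to the level of other nuclei for these 3 genes. *Ctnnb1*, the gene of beta-catenin, was 1.59 to 2.27 times higher, the inhibitor *Ctnnbip1* 1.98 to 2.27 times and the target *Axin2* 1.56 to 2.19 times. The core kinase and scaffold genes *Gsk3b* (0.982 to 1.09) and *Apc* (0.914 to 1.01) stood close to the level of other nuclei, and *Dkk3* (0.169 to 0.273) was below it. The median ratio over the 35 genes was 1.03, and over all 8448 genes it was 0.99.

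Ion channel genes showed a selective profile in which members of the same family went opposite ways. Of 43 detected genes of burst and pacemaker firing, 6 were at least 2 times higher and 5 at most 0.5 times as high in every library, beside 3.6% and 2.08% of all 8448 genes. *Cacna1g*, which encodes a T-type calcium channel, was at 139.0, 123.1, 122.9 and 123.1 CPM in WT 1, WT 2, HET 1 and HET 2, which was 2.88 to 4.05 times its level in other nuclei, while the T-type gene *Cacna1i* was 0.238 to 0.409 times. The pacemaker channel gene *Hcn4* was 3.08 to 7.56 times higher. The potassium channel genes *Kcnc2* (4.23 to 4.71) and *Kcnn3* (4.01 to 6.69) were high, and *Kcnh1* (0.140 to 0.192) and *Kcnq5* (0.340 to 0.476) were low. *Cacna1c*, an L-type channel gene, was 2.70 to 3.11 times higher, and *Cacna1e*, an R-type gene, was 0.399 to 0.452 times.

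Of 29 detected genes of glutamate receptors and their signalling, 5 were at least 2 times higher and 2 at most 0.5 times as high in every library, where the shares of all 8448 genes were 3.6% and 2.08%. *Plcb4*, a phospholipase C gene of receptor signalling, was at 736.5, 655.1, 614.2 and 651.4 CPM in WT 1, WT 2, HET 1 and HET 2 against 217.1 CPM, whereas its relative *Plcb1* was 0.235 to 0.314 times as high as in other nuclei. The NMDA receptor gene *Grin2c* was at 37.61, 22.55, 39.9 and 29.11 CPM against 2.128 CPM. *Grm4* was 3.99 to 5.0 times higher, and *Grm3* was 0.262 to 0.394 times. Of 20 GABA and glycine receptor genes 2 were past the upper mark, and of 11 detected monoamine and acetylcholine receptor genes 3, with none of either list past the lower one. *Gabra4* and *Gabrd*, whose subunits form extrasynaptic GABA-A receptors, were 2.52 to 4.45 and 2.17 to 2.67 times higher. *Htr7*, a serotonin receptor gene (3.52 to 4.53), *Adra1b*, an alpha-1 adrenergic receptor gene (3.11 to 4.70), and *Chrna4*, a nicotinic subunit gene (2.50 to 4.28), were also above other nuclei. Of 38 detected axon guidance and adhesion genes, 6 were at least 2 times higher and 3 at most 0.5 times as high in every library (median ratio 0.911). Among them *Robo1* (3.31 to 4.58) and *Unc5c* (2.25 to 3.03) were high and *Unc5d* (0.293 to 0.491) and *Ptprt* (0.246 to 0.288) were low.

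Markers of cortical excitatory neurons were low. The 3 of 6 listed genes that were detected in 10% or more of relay nuclei were at most 0.5 times as high in every library, beside 2.08% of all genes. *Nrgn*, which encodes the calmodulin-binding protein neurogranin, was at 20.27, 21.94, 19.95 and 20.06 CPM in WT 1, WT 2, HET 1 and HET 2 against 98.98 CPM in other nuclei, and *Slc17a7*, the gene of the cortical vesicular transporter VGLUT1, was 0.272 to 0.454 times. Part of this level lay in subcluster 4, described below, most of whose nuclei had high Scrublet scores. Without that subcluster *Nrgn* was at 10.74 CPM in place of 20.42, and *Slc17a7* at 31.63 CPM in place of 40.55. Among the 20 genes with the lowest ratios were *Erbb4* (155.7 against 1113 CPM), *Phactr1* (480.2 against 2707 CPM), *Zeb2* (79.5 against 467.6 CPM) and *Dlgap2* (268.1 against 1445 CPM). They were not of cortical type alone, since *Erbb4* was at 87.22 CPM in *Slc17a7* nuclei. The immediate early genes *Egr1* (0.263 to 0.564) and *Homer1* (0.336 to 0.390) stood below other nuclei.

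Relay nuclei fell into 11 subclusters by their own variable genes, and these are described with no test. Subcluster 8 was the largest (134 nuclei), was led by *Abhd12b* and *Tnc* and held *Prkcd* among its 10 leading genes. *Prkcd* ranged widely among the others, from 421.5 CPM in subcluster 6 (61 nuclei, led by *Fzd6*) and 219 CPM in subcluster 5 (46 nuclei, led by the growth factor gene *Fgf10*) to 13.57 CPM in subcluster 7 (76 nuclei, led by *Col27a1* and *Rgs6*) and 3.033 CPM in subcluster 11 (69 nuclei, led by *Ror1*). *Necab1*, which encodes a calcium-binding protein, ran in part the other way, with 712.8 CPM in subcluster 11 and 8.721 CPM in subcluster 6. *Calb1*, the calbindin gene, peaked in subcluster 3 (194.3 CPM; 85 nuclei, led by *Nox4*) and *Calb2*, the calretinin gene, in subcluster 11 (71.28 CPM). Subclusters 1 (128 nuclei, led by *Adamtsl3* and *Pth2r*) and 2 (118 nuclei, led by *Gm28822* and *Tll1*) had intermediate *Prkcd* levels of 78.43 and 137.8 CPM. The selection thus held several kinds of relay nuclei rather than 1 profile.

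3 subclusters departed from the rest. In subcluster 4 (84 nuclei), 72 nuclei had high Scrublet scores, the median nucleus held 19093 UMIs, and *Phactr1*, low in relay nuclei as a whole, was among its leading genes at 1942 CPM against 182.2 CPM in the other relay nuclei. Subcluster 9 (48 nuclei) was led by *Klhl1*, *Ebf3*, *Sox6* and *Ebf1* and had 1328 CPM of *Ntng1*, 57.42 CPM of *Synpo2* and no UMI of *Slitrk6* or *Rgs16*. *Ebf2*, of the pretectal and midbrain list, was also among its leading genes, at 81.5 CPM against 2.933 CPM in the other relay nuclei, and it held all UMIs of the habenula gene *Pou4f1* (9.261 CPM). Subcluster 10 (36 nuclei) was led by *1700011I03Rik*, *Lypd6b* and the Hedgehog pathway factor *Gli3* and had 978.9 CPM of *Ntng1* and 501.7 CPM of *Nwd2*. By comparison, *Ntng1* ran from 3730 to 5446 CPM in the 8 subclusters other than 4, 9 and 10. The 84 nuclei of subclusters 9 and 10 therefore met the rule without the full set of thalamic markers, and they were given no other name.

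**Figure D2:**
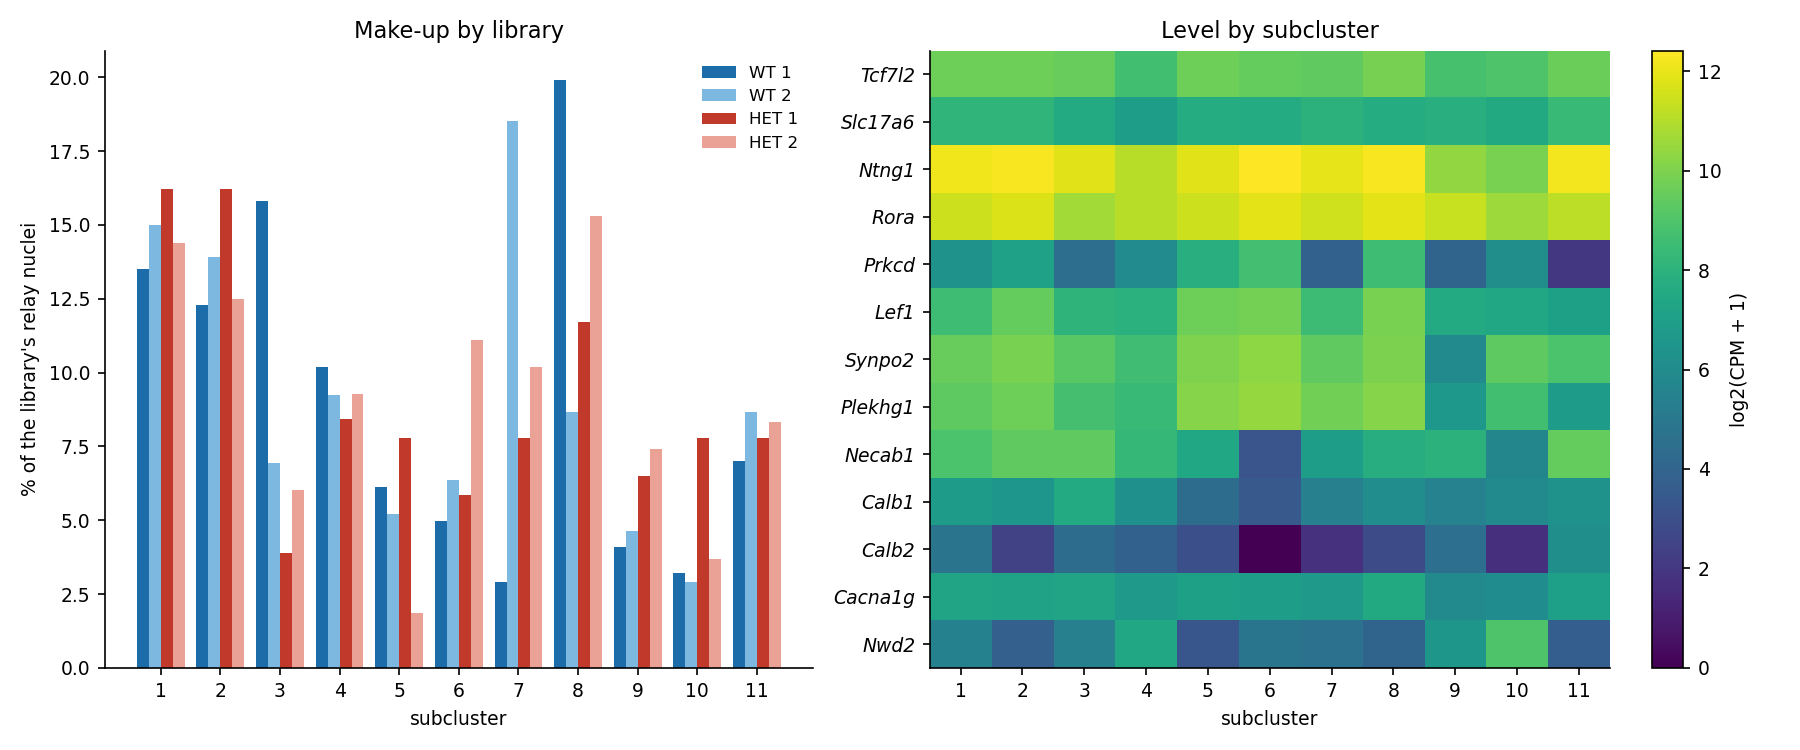
Left, percent of each library's relay nuclei in each of the 11 subclusters; right, log2(CPM + 1) of rule genes and other markers by subcluster. Subcluster 3 was largest in WT 1 and subcluster 7 in WT 2, and *Ntng1* was lowest in subclusters 9 and 10.

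The make-up differed between libraries, also within WT. Subcluster 3 held 15.8%, 6.94%, 3.90% and 6.02% of the relay nuclei of WT 1, WT 2, HET 1 and HET 2. Subcluster 7 held 2.92%, 18.5%, 7.79% and 10.2%, and subcluster 8 held 19.9%, 8.67%, 11.7% and 15.3%. In the last 2 the HET libraries lay between the WT libraries. Shares of subclusters 1 and 2 were more even, at 13.5% to 16.2% and 12.3% to 16.2% of a library. Subcluster 9 held 4.09%, 4.62%, 6.49% and 7.41% of WT 1, WT 2, HET 1 and HET 2, and subcluster 10 held 3.22%, 2.89%, 7.79% and 3.70%. In both of these the HET libraries lay above the WT libraries, and in subcluster 3 they lay below. The genotypes overlapped in each of the remaining subclusters. Subcluster 10 rested on 11, 5, 12 and 8 nuclei in WT 1, WT 2, HET 1 and HET 2, and no share of a subcluster was tested.

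The question of whether *Csf1r* heterozygosity changed the number of relay nuclei was put to the share of kept nuclei. Relay nuclei made up 2.122% of kept nuclei in WT 1 (exact binomial 95% interval 1.91 to 2.36), 1.135% in WT 2 (0.973 to 1.32), 1.606% in HET 1 (1.36 to 1.88) and 1.932% in HET 2 (1.68 to 2.20). The intervals cover counting error only. The means were 1.629% ± 0.698 in WT and 1.769% ± 0.23 in HET (SD, n = 2 libraries each), a difference of 0.14 percentage points (two-sided exact permutation test, p = 1.0, where 0.333 is the smallest p that 2 against 2 libraries allow). Both HET libraries lay between the WT libraries, so the groups overlapped fully. The minimums of the rule depend on depth. With the 41524 nuclei of at least 3000 UMIs thinned to that depth before the rule, and the rest left out, 178 qualified. The difference was then -0.0303 percentage points. Without thinning and without WT 2 the difference was -0.353 percentage points.

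**Figure D3:**
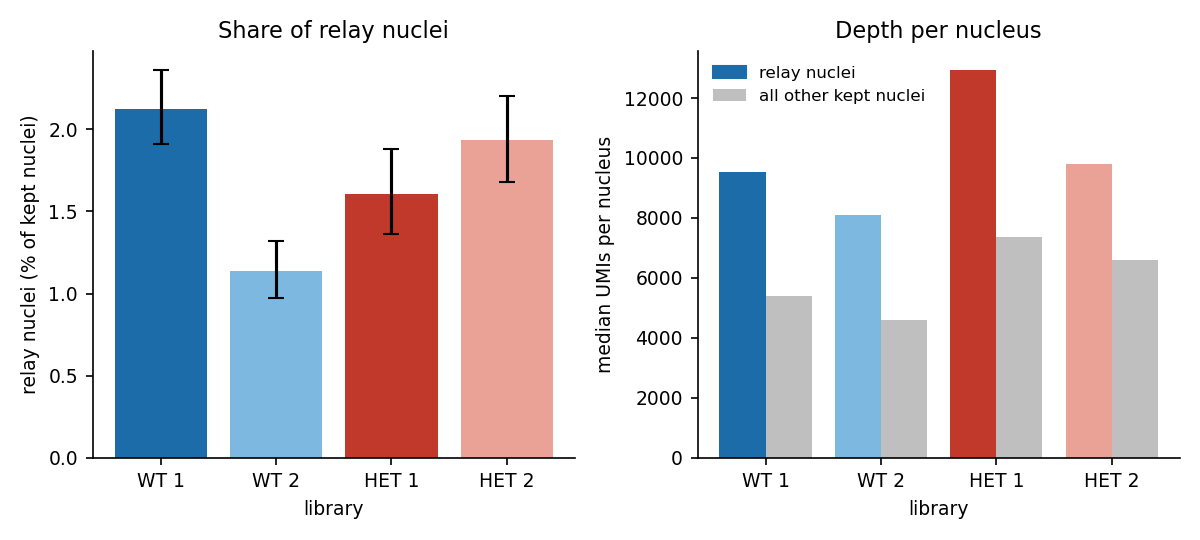
Left, relay nuclei as percent of kept nuclei in each library, with exact binomial 95% intervals; right, median UMIs per relay nucleus (coloured) and per other kept nucleus (grey). The HET libraries sit between the WT libraries for the share, and relay nuclei are deeper than other nuclei in all 4 libraries.

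The targeted gene was read first. *Csf1r* had 3, 4, 8 and 20 UMIs in the relay nuclei of WT 1, WT 2, HET 1 and HET 2, or 0.8, 2.44, 3.71 and 7.87 CPM. A UMI was present in 0.877%, 1.16%, 5.19% and 7.41% of them, against 0.199%, 1.31%, 4.74% and 4.36% of *Slc17a7* nuclei, which should lack the gene, at median depths of 9149, 7416, 11390 and 9360 UMIs. The share was higher in the HET libraries of both classes, and in WT 2 the share in relay nuclei was below that in *Slc17a7* nuclei. In nuclei with at least 3 UMIs of other microglia genes the level was 82.4 CPM in WT 1, 85.0 in WT 2, 44.3 in HET 1 and 32.0 in HET 2, so the labels held where the gene is made. In relay nuclei *Csf1r* did not reach the 10% detection limit of the main test. With a limit of 10 counts only, its log2 difference between HET and WT was 2.07 (SE 0.68, adjusted p = 1.0 in edgeR's quasi-likelihood test). Its p before adjustment, 0.00905, was under the study's threshold of 0.01.

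Differential expression between the genotypes was tested on UMIs summed per library, with edgeR's quasi-likelihood test over 8942 genes detected in 10% or more of the relay nuclei of 1 genotype or both, leaving out the genes of the rule. At the study's threshold of an unadjusted p under 0.01, 27 genes were called, which is 0.302% of those tested (16 higher and 11 lower in HET). After Benjamini-Hochberg adjustment 0 genes (0.0%) passed 0.05, and the smallest adjusted p was 1.0, while 196 genes (2.19%) had an unadjusted p under 0.05. The edgeR likelihood-ratio test, which the study used, called 48 genes at p under 0.01 (30 higher and 18 lower) and passed 2 after adjustment, and DESeq2 passed 0. The share at p under 0.01 is below the 1% that the threshold itself would pass with evenly spread p-values, so no single gene below can be taken as changed. Without WT 1 or WT 2 the lone WT library was taken to vary like the HET libraries, so the number of calls in those fits cannot be compared with the main one. Among genes with a p under 0.01, more were lower in HET without WT 1 and more were higher without WT 2. The median log2 difference over all tested genes was 0.002. All values are for 2 against 2 libraries, each of 1 brain.

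Among the 11 lower genes, whose log2 differences ran from -2.74 to -0.40, *Nox4* had the largest. *Nox4*, which encodes an NADPH oxidase that makes hydrogen peroxide, was at 54.5 CPM in WT 1, 14.6 in WT 2, 5.51 in HET 1 and 5.50 in HET 2 (scaled by TMM, as in the rest of this comparison), a log2 difference of -2.74 (SE 0.57, edgeR adjusted p = 1.0). The HET libraries were low and alike, and WT 1 was well above WT 2, so that the difference was -1.39 without WT 1 and -3.30 without WT 2. *Angpt1*, the gene of the ligand angiopoietin 1, was at 75.3, 60.7, 26.6 and 44.4 CPM in the same order (log2 difference -0.94, SE 0.23). *Slc4a4*, a sodium bicarbonate cotransporter gene, was at 260, 271, 193 and 198 CPM (-0.44, SE 0.11). In both, the 2 genotypes did not overlap, which choosing genes by a small p favours.

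The other lower genes were of mixed kinds. *Synpr*, which encodes the vesicle protein synaptoporin, was at 39.3, 32.2, 19.8 and 21.2 CPM in WT 1, WT 2, HET 1 and HET 2. *Plcl1*, an inactive phospholipase C gene (log2 difference -0.60), and *Mpped2*, a phosphodiesterase gene (-0.40), were also on this side. *Hs3st2*, a heparan sulphate sulphotransferase gene (-1.10), drew 66% of its UMIs from subcluster 4, the one with high Scrublet scores. *B3glct*, a glucosyltransferase gene (-0.46), the helicase gene *Dhx40* (-0.73) and the golgin gene *Golga3* (-0.55) completed the side together with *Rps16*, a ribosomal protein gene (-1.39) described with its group below.

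Among the higher genes, *Ebf1* had the smallest p. *Ebf1*, which encodes a transcription factor of the EBF family, was at 54.5, 42.5, 87.7 and 106 CPM in WT 1, WT 2, HET 1 and HET 2 (log2 difference 0.97, SE 0.17, edgeR adjusted p = 1.0). *Pcdh11x*, a protocadherin gene, was at 127, 107, 199 and 178 CPM (0.68, SE 0.13). *Pth2r*, which encodes the receptor of the peptide TIP39, was at 14.9, 18.2, 40.9 and 29.5 CPM (1.11, SE 0.26). For these 3 genes both HET libraries lay above both WT libraries. *Gpr149*, an orphan receptor gene, was at 8.94, 10.3, 17.9 and 24.0 CPM (1.15, SE 0.29), and *Htr2c*, the gene of the serotonin 2C receptor, was at 196, 223, 271 and 294 CPM (0.44, SE 0.12). *Htr2c*, which is not among the 12 higher genes with the smallest p, was the only called member of the neuronal gene lists. *Thsd7b* (0.46), the metalloprotease gene *Tll1* (0.68) and the inactive phosphatase gene *Styx* (0.65) were higher as well. *Gm45341*, *Gm29478*, *Gm46124*, *4930555F03Rik* and the olfactory receptor gene *Olfr239* made up the rest of those 12. Leaving out each library in turn gave 0.43 to 0.89 for *Tll1*, 0.35 to 0.77 for *Gm29478* and 0.42 to 0.99 for *4930555F03Rik*.

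**Figure D4:**
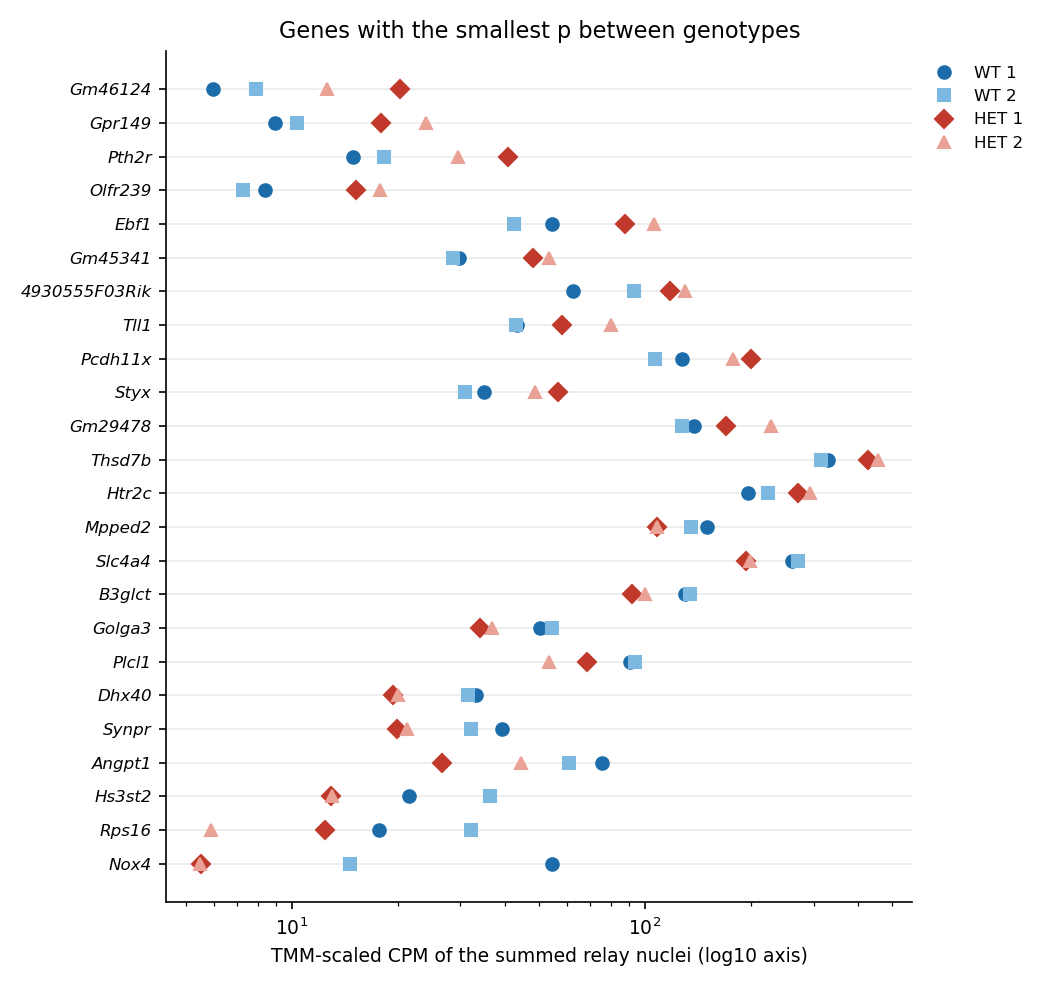
TMM-scaled CPM (log10 axis) in the summed relay nuclei of each library for the 24 genes named by rule, ordered by log2 difference. Circles and squares are WT 1 and WT 2, diamonds and triangles HET 1 and HET 2; the genotypes do not overlap for any of these genes, which is how they were chosen.

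Some called genes were concentrated in 1 subcluster. *Nox4* drew 86.1% of its UMIs from subcluster 3, which was largest in WT 1, and *Ebf1* drew 43.8% from subcluster 9. Within subcluster 3, *Nox4* was at 346, 133, 98.6 and 75.3 CPM in WT 1, WT 2, HET 1 and HET 2, from 186, 13, 7 and 10 UMIs. With the subclusters weighted to the same make-up in every library, its log2 difference was -1.47 in place of -2.74, and its levels were 37.0, 17.8, 11.4 and 8.35 CPM. For *Ebf1* the weighted difference was 0.79, for *Pth2r* 0.96 and for *Htr2c* 0.23. All 24 genes named by the rule kept their direction after weighting. The genotypes overlapped after weighting in *Htr2c* alone, at 210, 264, 251 and 303 CPM. These genes had a small p and genotypes apart before weighting, so their separation afterwards is not further evidence of a change. The subclusters were built from these same nuclei and genes, so the weighting is a description.

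A list of 10 genes drawn from the study's results, among them the metallothioneins, had negative log2 differences in the 9 members tested, with WT 2 the highest library in their sum. *Mt1*, which encodes a zinc-binding and copper-binding protein, was at 8.13, 38.2, 4.59 and 6.29 CPM in WT 1, WT 2, HET 1 and HET 2, or 30, 63, 10 and 16 UMIs (log2 difference -1.89, SE 0.70, edgeR adjusted p = 1.0). *Apoe*, the lipid carrier gene of astrocytes and microglia, was at 19.8, 97.1, 23.0 and 12.2 CPM (-1.62, SE 0.65), and *Fth1*, the gene of ferritin heavy chain, was at 46.3, 129, 43.6 and 21.2 CPM (-1.37, SE 0.46). In all 3 genes WT 2 was the high library, and WT 1 stood far closer to the HET libraries than to WT 2. *Aldoc*, a glycolytic gene typical of astrocytes, was at 10.0, 32.2, 8.73 and 4.71 CPM (-1.52, SE 0.57), and *Mt3*, *Ndrg2*, *Camk2n1*, *Rpl37* and *Rps29* had log2 differences of -0.67, -0.32, -0.29, -0.62 and -0.37. None of the 9 tested genes was called at p under 0.01 and 4 (*Mt1*, *Apoe*, *Fth1* and *Aldoc*) had a p under 0.05, beside 2.19% of all tested genes at that mark and 49.5% with a negative difference. *Mt2*, under the detection limit, had 9, 9, 4 and 3 UMIs. Without WT 2 the log2 differences were -0.56 for *Mt1*, -0.19 for *Apoe*, -0.54 for *Fth1*, -0.60 for *Aldoc* and 0.45 for *Rps29*, and they were -0.11 for *Mt3*, -0.03 for *Ndrg2*, -0.08 for *Rpl37* and within rounding of 0 for *Camk2n1*. The genes come from results on a series that includes these libraries, so their direction is not independent evidence.

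Ribosomal protein genes behaved alike. Of 67 tested, 62 had a negative log2 difference, with a median of -0.41 beside 0.00 over all tested genes, of which 49.5% were negative. At p under 0.01, 1 (*Rps16*) was called, beside 0.302% of all tested genes. At p under 0.05 there were 4 (*Rps16*, *Rpl14*, *Rps14* and *Rpl27a*), beside 2.19%. *Rpl6* was the most abundant gene of the list, and 2 of 83 genes were at 0 in relay nuclei. The summed level of the list was 1151, 2205, 1305 and 1083 CPM in the relay nuclei of WT 1, WT 2, HET 1 and HET 2. In all other nuclei it was 1661, 3251, 1577 and 1314 CPM. WT 2 was again the high library in both. Without WT 2 the median log2 difference was 0.06. Many of these genes have near-identical processed copies in the genome, and reads shared with them make single values uncertain.

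RNA of astrocyte and oligodendrocyte genes was highest in the same library. The 11 astrocyte genes, led by *Slc1a2*, summed to 364.4, 568.0, 365.1 and 349.3 CPM in the relay nuclei of WT 1, WT 2, HET 1 and HET 2 and to 498.5, 758.1, 480.4 and 459.1 CPM in all other nuclei. The 8 oligodendrocyte genes, led by *Mbp*, summed to 42.15, 133.5, 52.42 and 37.76 CPM in relay nuclei and to 191.1, 804.8, 387.3 and 228.2 CPM in all other nuclei. The 7 microglia genes, led by *P2ry12*, had another order in relay nuclei, at 57.62, 78.0, 91.39 and 81.03 CPM, and summed to 72.33, 119.2, 103.4 and 104.0 CPM in all other nuclei. None of the genes of these lists was at 0 in relay nuclei. The astrocyte list shares *Apoe*, *Mt1*, *Mt2* and *Aldoc* with the study genes above, so its sum is in part theirs. Of its other members, *Slc1a2*, a glutamate transporter gene, was at 309.4, 361.4, 311.7 and 310.0 CPM in relay nuclei, *Clu* was at 11.74, 13.41, 9.742 and 11.8 CPM, and *Slc1a3* was at 1.334, 11.58, 3.711 and 1.573 CPM. WT 2 was the highest library in each, but by little in *Slc1a2* and *Clu*, whose log2 differences between HET and WT were -0.12 and -0.21. The part of astrocyte and oligodendrocyte RNA in the lower values of *Mt1*, *Apoe*, *Fth1*, *Aldoc* and the ribosomal protein genes was not tested.

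**Figure D5:**
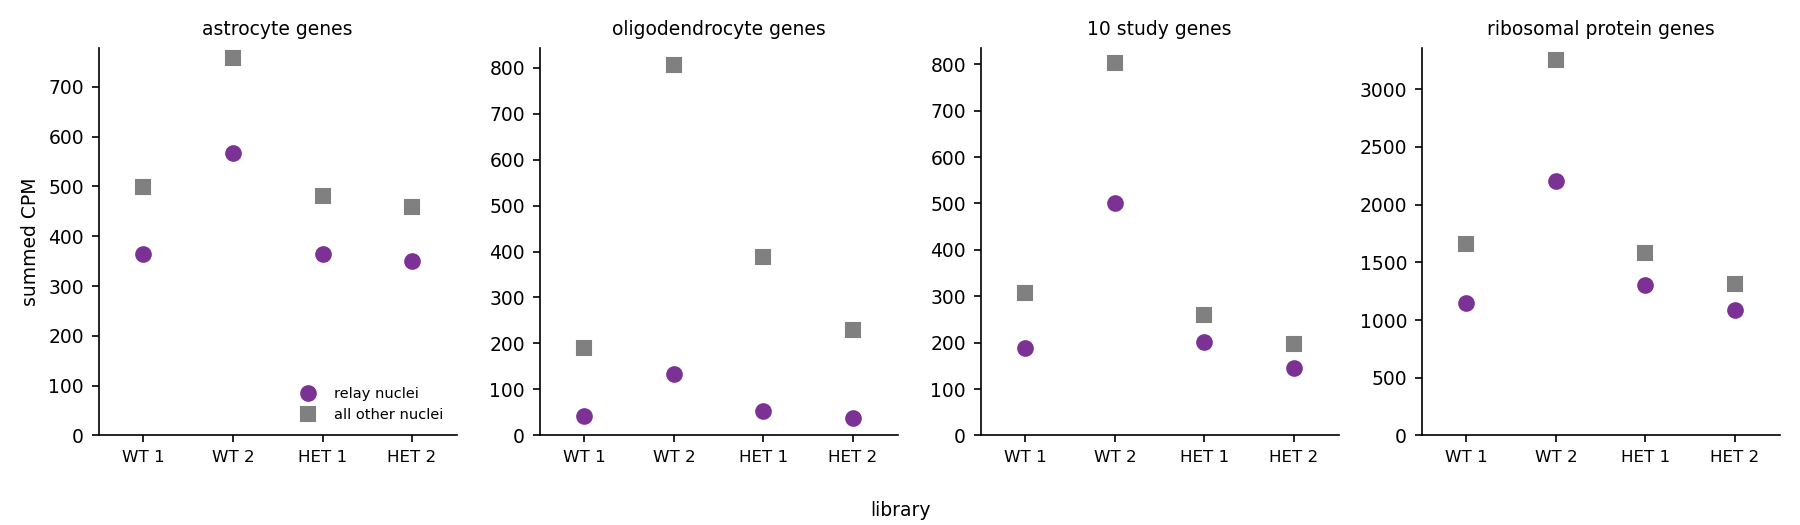
Summed CPM of the astrocyte, oligodendrocyte, study and ribosomal protein gene lists in relay nuclei (circles) and all other kept nuclei (squares) of each library. WT 2 is the highest library in all 4 panels and in both sets of nuclei; the astrocyte and study lists share 4 genes.

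Neuronal gene lists showed few differences. Over all tested genes, 2.19% had a p under 0.05 and 49.5% a negative log2 difference. None of the thalamic markers was called at p under 0.01 or 0.05 among 13 tested, and their log2 differences ran from -0.18 to 0.42 with a median of -0.07. The Wnt list (36 tested, median 0.01), the GABA and glycine receptor list (20 tested, median 0.02) and the transmitter release list (21 tested, median -0.01) had no gene with a p under 0.05. Of 43 tested channel genes, *Hcn2*, a pacemaker channel gene (35.8, 34.0, 47.3 and 49.1 CPM in WT 1, WT 2, HET 1 and HET 2; log2 difference 0.46), and *Kcnip1* (0.37) had a p under 0.05. Of 12 tested monoamine and acetylcholine receptor genes, 9 had a positive log2 difference (median 0.29), and beside *Htr2c* the genes with a p under 0.05 were *Adra1b* (0.43), *Hcrtr2*, the orexin receptor 2 gene (0.77), and the muscarinic gene *Chrm3* (-0.25). *Gria1*, an AMPA receptor gene (0.28), and the guidance and adhesion genes *Unc5d* (-0.33) and *Cntn5* (-0.27) were the other members past that mark. Leaving out each library in turn gave -0.46 to -0.21 for *Unc5d* and 0.18 to 0.40 for *Gria1*. The range was 0.27 to 0.56 for *Adra1b* and 0.24 to 0.48 for *Kcnip1*. *Cntn5* was a leading gene of subcluster 5, and with the subclusters weighted to the same make-up its log2 difference was -0.06 and the genotypes overlapped. This weighted value rests in part on the 4 HET 2 nuclei of subcluster 5. *Cntn5* was at 6060, 6340, 4670 and 8170 CPM there in WT 1, WT 2, HET 1 and HET 2. The weighted difference was smaller for *Chrm3* as well (-0.15) but larger for *Hcn2* (0.60). Among microglia genes, *P2ry12* was at 30.6, 32.8, 41.8 and 44.8 CPM (0.46).

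Whether the genotype effect in relay nuclei differed from that in other glutamatergic nuclei was tested by the interaction of genotype and cell class, with the library as a block. Against the 1327 other *Slc17a6* nuclei, 63 of 9301 genes (0.677%) had an unadjusted p under 0.01, and 0 (0.0%) passed 0.05 after adjustment in edgeR's quasi-likelihood test, beside 345 with an unadjusted p under 0.05 and 7 after adjustment in the likelihood-ratio test. The smallest p belonged to *Col25a1*, a membrane collagen gene, at 330, 523, 499 and 492 CPM in relay nuclei and 134, 215, 120 and 102 CPM in the other *Slc17a6* nuclei of WT 1, WT 2, HET 1 and HET 2 (adjusted p = 0.149). Against the 9012 *Slc17a7* nuclei, which are mostly of cortical type, 100 of 9350 genes (1.07%) had an unadjusted p under 0.01 and 3 (0.0321%) passed 0.05 after adjustment, with 43 in the likelihood-ratio test. When each library was left out in turn, 5 to 30 genes passed against the other *Slc17a6* nuclei (30 without HET 2) and 5 to 65 against *Slc17a7* nuclei (59 without WT 1 and 65 without WT 2).

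These 3 genes were *Ebf1*, *Erbb4* and *Zbtb20*. *Ebf1* was at 53.6, 40.9, 85.6 and 104 CPM in relay nuclei of WT 1, WT 2, HET 1 and HET 2 and at 7.86, 6.32, 3.14 and 3.21 CPM in *Slc17a7* nuclei (difference of log2 effects 2.15, SE 0.21, edgeR adjusted p = 0.00371). *Erbb4*, the neuregulin receptor gene, was at 132, 156, 176 and 159 CPM in relay nuclei and at 115, 140, 68.0 and 54.2 CPM in *Slc17a7* nuclei (1.28, SE 0.13, adjusted p = 0.00371). *Zbtb20*, a transcriptional repressor gene, was at 240, 162, 245 and 235 CPM and at 366, 221, 173 and 143 CPM (1.14, SE 0.14, adjusted p = 0.0158). For *Erbb4* and *Zbtb20* the HET libraries were lower in *Slc17a7* nuclei, while the genotypes overlapped or nearly met in relay nuclei. For *Ebf1* the genotypes were apart in both classes, in opposite directions. Against the other *Slc17a6* nuclei the difference of log2 effects was 1.13 for *Ebf1* (adjusted p = 0.429), 0.43 for *Erbb4* and 0.14 for *Zbtb20* (adjusted p = 1.0 for both).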

How the data were processed

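The authors isolated nuclei, made libraries with a Chromium 3′ kit and sequenced them on an Illumina HiSeq instrument. They counted UMIs with Cell Ranger (5.0.0 in the matrix headers, mm10 per the labels). What the authors deposited are UMI counts, whole numbers for each gene in each called nucleus, with no normalization or filter applied. The study's limits were used to keep nuclei: from 500 up to 50000 UMIs, over 200 genes, and a mitochondrial share under 5%. The members, gene lists and tests were chosen with earlier results of these data known. Gene positions came from RefSeq's GRCm38.p6 table.

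UMIs were summed per library over the 885 relay nuclei and the genotypes were tested by the two-sided quasi-likelihood test of edgeR 4.0.16 with TMM factors and Benjamini-Hochberg adjustment (R 4.3.3, limma 3.58.1), with DESeq2 1.42.0 as an alternative. A gene was tested when 10% or more of the relay nuclei of 1 genotype held it and it had 10 counts. The tests were tested on simulated data. Subclusters used scanpy 1.11.5 and leidenalg 0.10.2 (1000 variable genes, 10 principal components, 15 neighbours, resolution 0.5, seed 1). Doublets were scored with Scrublet and kept. In the comparison classes, other *Slc17a6* nuclei had at least 2 *Slc17a6* UMIs and none of *Tcf7l2*, and *Slc17a7* nuclei at least 2 *Slc17a7* UMIs and none of *Slc17a6*; both lacked *Gad1* and *Gad2*. Named genes were the 20 highest by ratio outside the rule, listed thalamic genes, *Csf1r* and 10 study genes. Up to 12 lower and 12 higher genes with the smallest p under 0.01 and genotypes that did not overlap were also named. Listed genes with such a p were named too, and listed genes with a p under 0.05 were added after their values were seen. Summed UMIs per library, given in the report, set the precision. Alternatives were other tests, scalings, filters, thresholds of the rule, thinning, and leaving out each library. Each library is 1 brain. A few genes of the lists are not reported here.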

Additional observations from a re-analysis of the deposited data

Results flagged for a closer look

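3 genes were singled out because their genotype effect differed between relay nuclei and *Slc17a7* nuclei by a test of the difference itself (edgeR interaction term, adjusted over 9350 genes). The difference of log2 effects, relay minus *Slc17a7* nuclei, was 2.15 for *Ebf1*, 1.28 for *Erbb4* and 1.14 for *Zbtb20*. In relay nuclei alone the log2 differences between HET and WT means were 1.0, 0.21 and 0.25, and in *Slc17a7* nuclei -1.16, -1.06 and -0.89. With nuclei thinned to 3000 UMIs the differences were 2.43, 1.25 and 1.13. Leaving out each library in turn gave 2.03 to 2.27 for *Ebf1* and 1.19 to 1.37 for *Erbb4*, with an adjusted p of at most 0.023 in each. For *Zbtb20* the range was 1.04 to 1.24, and without HET 2 its adjusted p rose to 0.0699. *Ebf1* and *Erbb4* were also leading genes of subcluster 9, which held 4.09% of the relay nuclei of WT 1, 4.62% in WT 2, 6.49% in HET 1 and 7.41% in HET 2. The part of this make-up in the difference between classes was not tested. For *Erbb4* and *Zbtb20* most of the difference lay in *Slc17a7* nuclei, and *Ebf1* was low there, at 3.14 to 7.86 CPM. The part of the make-up of the *Slc17a7* nuclei, or of RNA from other cells in them, was not tested either. Subcluster 9 held 37.3% of the *Erbb4* UMIs, and with the subclusters weighted to the same make-up the log2 difference of *Erbb4* in relay nuclei was 0.03 in place of 0.22 in the fit of these nuclei alone.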

How the results depend on the processing

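The difference in share between HET and WT changed sign with thinning to 3000 UMIs (-0.0303 percentage points), with nuclei of at least 3000 UMIs only (-0.0818) and with nuclei holding *Slc17a6* as the denominator (-0.543), and ran from -0.353 to 0.634 when each library was left out. Calls at an unadjusted p under 0.01 numbered 48 with the likelihood-ratio test, 14 with DESeq2, 62 with the limit of 10 counts alone and 45 with at least 5 *Tcf7l2* UMIs, and from 24 to 172 when each library was left out (172 without WT 1 and 157 without WT 2). With RLE factors, library totals, members of at least 3000 UMIs or without high Scrublet scores the count was 26 to 31. It was 32 without subcluster 4, an alternative added after seeing the data. With thinning only 4403 genes were tested and 25 were called, against 27 of 8942 in the main test. With the replicate block the calls were 48 at p under 0.01 and 1 after adjustment. The replicate numbers only name the libraries: deviations of same-numbered libraries had a correlation of -0.108 over 4489 genes. With the numbers crossed as a block, chosen after seeing the data, the counts were 63 (24 higher and 39 lower in HET) and 3. After adjustment, 2 genes passed with the likelihood-ratio test and from 0 to 32 when each library was left out (32 without WT 1, 1 without WT 2). Where a library was left out, the lone one was assumed to vary like the other genotype. Differences from the other *Slc17a6* nuclei passed adjustment for 7 genes with the likelihood-ratio test and for 5 to 30 in the leave-one-out fits, and at p under 0.01 for 90 to 174. Differences from *Slc17a7* nuclei passed for 43 with the likelihood-ratio test and for 5 to 65 in the leave-one-out fits, and at p under 0.01 for 92 to 228. The median ratio of the thalamic genes was 25.8 against *Slc17a7* nuclei, and the median number of genes per relay nucleus was 1516 after thinning. Of the 48 genes whose genotype difference was refitted under the alternatives, *Rps29* changed sign (-1.07 to 0.45 over the libraries left out). Depth limits the rarest genes: *Mt2* had 3 to 9 UMIs per library.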
